A study of Mus musculus with 2 samples.

Results

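The genes described here build the lysosome, the acidic compartment in which cells break down proteins, sugars and lipids. They were chosen by symbol: 36 genes for hydrolases, their cofactors, lysosomal membrane proteins, sterol release, the proton pump and its transcriptional control, of which 35 were measured among 21877 genes and Glb1 had no matching symbol. RNA came from mouse CD8 T cells cultured under Tc1 cytokine conditions, which drive CD8 T cells toward interferon gamma production and killing. The control group received no further treatment and the other group received cholesterol, with 1 array of each. The sources used here do not give the mouse strain, its age, the tissue of origin or the dose, vehicle and duration of cholesterol. There were no replicates, so no difference below has an error or a p-value, and all of them compare these 2 arrays only.

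Lysosomal hydrolases are made in the endoplasmic reticulum, tagged with mannose 6-phosphate and delivered to a lumen that the vacuolar ATPase keeps acidic. Cholesterol taken up in lipoproteins reaches this lumen as esters, which the acid lipase Lipa cleaves; the soluble protein Npc2 then passes the free sterol to the membrane protein Npc1 for export. The transcription factors TFEB and TFE3 turn on many genes of the compartment through a motif with the core CACGTG. In cytotoxic T cells the granules that hold granzymes and perforin are modified lysosomes.

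Values are the deposited signals in linear units, and each difference is on the log2 scale, cholesterol minus untreated. Of all genes, 11327 reached a brightness filter, the median gene-level signal of 47.4 on the brighter array. The median difference of these genes was 0.049, and the log2 median of all gene-level signals differed by 0.044 between the arrays. The negative control probe sets had a 95th percentile of 130.3 on the untreated and 121.8 on the cholesterol array; a gene that does not exceed these values on either array is called dim, and no fold is given for it. Of the 35 members, 29 exceeded them on both arrays and are called well detected, and 6 (Ctsh, Ctsl, Lgmn, Cd63, Atp6v0b and Tfeb) were dim. Where the filter left a gene a pair of probe sets (67 genes), the median disagreement of their differences was 0.14 and the 95th percentile 0.68, which covers probes and not samples. Cd8a had signals of 3274 and 3780, and Cd4 was also well detected, at 605 on the untreated and 393 on the cholesterol array.

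The lysosomal genes as a whole differed little between the arrays. With cholesterol 19 of 35 were higher, against 58.6% of all genes past the filter, 15 were lower, against 40.4%, and Tfe3 had equal signals. Their median difference was 0.0087. The signal with cholesterol was at least 25% above the untreated one for 3 members (Mcoln1, Npc2 and Atp6v0b), where the background was 14.3%, and the untreated signal was at least 25% above that with cholesterol for 1 (Ctsh), where it was 8.95%. Among the 29 well detected members 16 were higher and 12 lower, against 61.9% and 37.2% of 7112 well detected genes, and 2 and 0 passed the 25% step in these directions, against 11.3% and 4.34%. The numbers past the step hung on the scaling: upward and downward they were 1 and 3 after quantile normalization, 0 and 3 after a lowess correction, 6 and 1 after centring each array on its median, and 0 and 0 with 50 units added to each signal. The background moved with the scaling too. Upward and downward it was 11.2% and 10.7% after quantile normalization and 11% and 10.7% after lowess. With centring it was 18.1% and 7.24%, and with the added units 7.65% and 4.17%. Of the 4 members past it in the deposited signals, Atp6v0b and Ctsh were dim. No member reached 1.5-fold in either direction, a size that 3.22% of all genes reached upward and 2.72% downward. When genes past the filter were split into 5 bands of mean signal, 5.03% of all genes and 0 of the 34 members past the filter lay outside the central 95% of their band. In the band of 277 to 563, which held 13 members, that central range ran from -0.38 to 0.53, and in the brightest band, with 10 members, from -0.34 to 0.45. The groups did not move alike. Both sterol release genes and the 5 well detected membrane proteins were higher, where the share of all well detected genes was 61.9%, whereas hydrolases and pump genes were split.

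**Figure D1:**
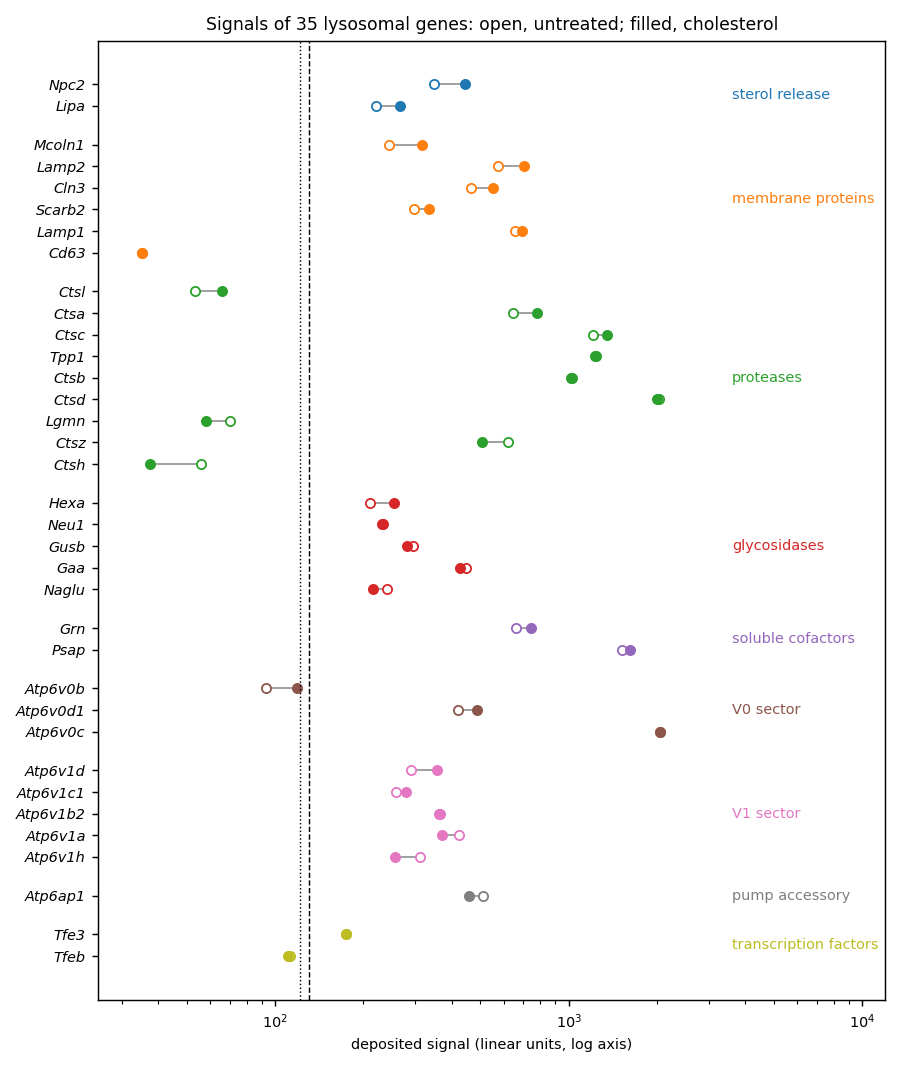
Deposited signal (linear units on a log axis) of each of the 35 measured lysosomal genes on the untreated array (open points) and the cholesterol array (filled points), grouped by role; the dashed and dotted lines are the 95th percentiles of the negative controls at 130.3 and 121.8. Most pairs of points lie close together, and the filled point is to the right for both sterol release genes and for all membrane proteins, although the Cd63 points overlap.

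The promoters of some members share a motif. RefSeq promoter sequences on build GRCm38.p6, running from 250 bases before to 50 after a start site, were matched for 30 of the 35 members. A set of 3 nested forms of the motif of TFEB and TFE3 was searched on both strands. The shortest was CACGTG, the next, with a T before it, was TCACGTG, and the longest was GTCACGTG, so that each match to a longer form is also a match to the shorter ones. GTCACGTG was present in 9 of the 30 members with a promoter (30%), against 4.81% of 8519 measured genes past the filter and 2.55% of 27025 genes in the table; among the other lysosomal genes listed, 8 of 75 held it (10.7%). Counted per promoter, it was in 23.1% of 39 member promoters and 2.25% of all 32851. CACGTG alone was in 12 members (40%), against 11.7% of genes past the filter and 21.3% of the other lysosomal genes. The 9 promoters with GTCACGTG are shown because this motif is a known route by which TFEB induces genes of the compartment together; each stretch is on the gene's own strand, cut to at most 30 bases past the start site, with every CACGTG, and the flanking letters it shares with GTCACGTG on either strand, in capitals.
Mcoln1 (chr8:3500426-3500501, plus strand): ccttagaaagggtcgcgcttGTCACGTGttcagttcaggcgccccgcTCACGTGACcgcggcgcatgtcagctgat
Lamp1 (chr8:13159079-13159171, plus strand): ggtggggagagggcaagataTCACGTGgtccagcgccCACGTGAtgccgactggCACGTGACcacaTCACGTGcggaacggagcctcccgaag
Cln3 (chr7:126583330-126583405, minus strand): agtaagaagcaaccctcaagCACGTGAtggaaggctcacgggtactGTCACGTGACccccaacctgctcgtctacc
Ctsa (chr2:164833739-164833802, plus strand): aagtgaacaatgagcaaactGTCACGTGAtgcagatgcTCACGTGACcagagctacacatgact
Ctsd (chr7:142387898-142388077, minus strand): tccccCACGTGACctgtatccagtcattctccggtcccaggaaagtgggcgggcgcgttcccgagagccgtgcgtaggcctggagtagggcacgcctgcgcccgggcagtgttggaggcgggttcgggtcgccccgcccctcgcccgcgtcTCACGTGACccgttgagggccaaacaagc
Naglu (chr11:101069999-101070046, plus strand): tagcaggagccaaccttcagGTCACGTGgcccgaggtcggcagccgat
Lgmn (chr12:102439116-102439163, minus strand): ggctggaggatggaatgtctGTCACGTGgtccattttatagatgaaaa
Atp6v0b (chr4:117887322-117887387, minus strand): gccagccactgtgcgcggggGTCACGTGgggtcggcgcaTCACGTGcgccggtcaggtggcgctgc
Atp6v0d1 (chr8:105566041-105566089, minus strand): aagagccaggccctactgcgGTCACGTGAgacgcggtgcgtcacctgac

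Lamp1 held 4 copies of CACGTG, the most among these promoters, the first of them at -61 from its start site. Ctsa, Cln3 and Lgmn each have 2 start sites in the table, and the stretch shown belongs to 1 of them. The 9 members with GTCACGTG had a median difference of 0.21 and the other 21 with a promoter 0.0038. For TCACGTG, found in 11 members, however, the medians were 0.081 with and 0.095 without it. For CACGTG, found in 12, they were 0.15 and 0.049. Measured genes past the filter had medians of 0.092 with GTCACGTG and 0.05 without it. In the other lysosomal genes the medians with and without GTCACGTG were 0.22 and 0.11. The shorter forms went the other way there, with 0.032 and 0.12 for TCACGTG and 0.041 and 0.12 for CACGTG. These values describe genes of 1 pair of arrays. Well detected members with GTCACGTG lay on both sides of 0, from Mcoln1 at 0.38 to Naglu at -0.16. Neither Npc2 nor Lipa held the letters CACGTG in this window.

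Both sterol release genes were higher with cholesterol. Npc2, the soluble sterol carrier of the lumen, had a signal of 347 on the untreated and 443 on the cholesterol array, 1.28-fold higher (difference 0.35). Lipa, the acid lipase that frees cholesterol and fatty acids from lipoprotein esters, had signals of 221 and 266, 1.20-fold higher (0.27). Npc1, the membrane transporter that takes sterol from Npc2 and is not among the 36 chosen genes, had signals of 171 and 208, 1.22-fold higher (0.28). These 3 steps of 1 route differed by like amounts, and each lay inside the central 95% of its signal band. The other sterol handling genes listed showed smaller differences, Stard3, a sterol transfer protein of late endosomes, at 0.11 and the oxysterol-binding protein gene Osbp at 0.016, while Osbpl1a was dim.

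All 6 membrane protein genes were higher with cholesterol, with a median difference of 0.21 against 0.049 for all genes past the filter. Mcoln1, the calcium channel of the lysosomal membrane, had a signal of 245 on the untreated and 318 on the cholesterol array, 1.30-fold higher (0.38) and the largest positive difference among the 35 members. Lamp2, an abundant glycoprotein of the limiting membrane that also serves chaperone-mediated autophagy, had signals of 573 and 706, 1.23-fold higher (0.30). Lamp1, its close relative, had signals of 655 and 693, 1.06-fold higher (0.081). The differences of the LAMP genes lay 0.22 apart, between the median (0.14) and the 95th percentile (0.68) of the disagreement of a pair of probe sets. Cln3, a membrane protein mutated in a childhood neuronal storage disease, had signals of 465 and 550.5, 1.18-fold higher (0.24). Scarb2, the receptor that carries glucocerebrosidase to lysosomes, had signals of 296.5 and 335, 1.13-fold higher (0.18). Cd63, a tetraspanin of lysosomes and secretory granules, had signals of 35.1 and 35.2, dim and below the brightness filter, so its direction carries no weight.

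The proteases did not share a direction, with 3 of 9 higher and 6 lower and a median of -0.018. Ctsa, a serine carboxypeptidase that also protects beta-galactosidase and neuraminidase, had signals of 645 and 782, 1.21-fold higher (0.28). Ctsc, the dipeptidyl peptidase that activates pro-granzymes, had signals of 1212 and 1352, 1.12-fold higher (0.16). Ctsz, a carboxypeptidase of the papain family, had signals of 623 and 506, 1.23-fold lower (-0.30), the largest negative difference among well detected members. For 3 other proteases the 2 arrays were nearly equal. Ctsb, a cysteine protease, had signals of 1028 and 1015 (-0.018). The aspartic protease Ctsd had 2038 and 1999 (-0.028). Tpp1, a tripeptidyl peptidase, had 1237 and 1229.9 (-0.0089). Each of these 3 differed by less than the median disagreement of a pair of probe sets.

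The other 3 proteases were dim, so their differences are uncertain. Ctsh had signals of 56.0 and 37.4 (-0.58). For Ctsl the signals were 53.5 and 66.1 (0.31). Lgmn, the asparagine-specific protease legumain, had 70.2 and 58.2 (-0.27). Ctsl, a cysteine protease, and Lgmn are known for cutting antigens and the invariant chain in antigen-presenting cells, and Ctsh is an aminopeptidase of the same papain family as Ctsl.

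Markers of antigen-presenting cells were lower on the same cholesterol array. Of 14 macrophage and dendritic cell markers, 12 were lower and 8 passed the 25% step downward. The shares of all genes past the filter were 40.4% and 8.95%, and 8 of the 14 passed that filter. The 14 markers had a median of -0.43 and a summed signal of 3006 without and 1688 with cholesterol. The 5 well detected ones, Cd74, H2-Aa, H2-Ab1, H2-Eb1 and Fcer1g, ran from -1.20 to -0.50. All 5 passed the step downward, against 4.34% of all well detected genes. The other 9 were dim. The macrophage receptor genes Csf1r and Adgre1 had signals of 18.0 and 20.1 without and 15.9 and 20.6 with cholesterol, and both were dim. All 6 B cell markers were lower, with a median of -0.50 and summed signals of 655 and 392, and Cd79b alone was well detected. Cd79a, with signals of 251 and 113, exceeded the negative controls on the untreated array only and was at least 2.06-fold lower. Of 7 mast cell markers 5 were lower, with a median of -0.16 and summed signals of 442 and 432. Cpa3, with signals of 136 and 45.9, exceeded the negative controls on the untreated array only. Kit, the well detected one among the 7, was 1.48-fold higher. Both CD4 T cell markers were lower, Cd4 by 1.54-fold and Zbtb7b with a difference of -0.011. Their part in the differences of Ctsh, Lgmn, Ctsz or any other member was not tested. In RNA from whole cultures, fewer cells of a type and less RNA per cell cannot be told apart. The 5 genes listed as CD8 T cell markers were all higher, with a median of 0.26, where the share of all well detected genes was 61.9%. Cd8a and Cd8b1 differed by 0.21 and 0.31. The others, Cd3d (0.46), Cd3e (0.094) and Cd3g (0.26), are shared by CD4 and CD8 T cells.

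Glycosidases were nearly level, with 1 of 5 higher and a median of -0.068. Hexa, the alpha subunit of beta-hexosaminidase, was the exception with signals of 210.0 and 254, 1.21-fold higher (0.27). Naglu, which removes N-acetylglucosamine from heparan sulfate, had signals of 240.1 and 216 (-0.16). Gaa, the acid alpha-glucosidase that degrades glycogen, had 448 and 425 (-0.074). Gusb, beta-glucuronidase, had 294 and 281 (-0.068). The sialidase gene Neu1 had 234 and 232 (-0.014), and apart from Hexa these glycosidases differed by about the disagreement of a pair of probe sets or less. The 2 cofactor genes were slightly higher: Psap, the precursor of the saposins that present lipids to hydrolases, at 1516 and 1619 (0.095), and Grn, progranulin, at 661 and 747 (0.18).

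Together, hydrolases and cofactors had 6 of 16 higher and a median of -0.016. It was 0.028 when each array was centred on its median, which put that of all genes past the filter at 0.093. The 34 other soluble hydrolase and hydrolase-processing genes listed leaned more to the cholesterol array, with 27 higher, 7 lower and a median of 0.23. Of them 9 passed the 25% step upward and 0 downward. Among the 25 well detected ones, 20 were higher, where the share of all such genes was 61.9%, and 8 passed the step upward, where it was 11.3%. Ppt1, a thioesterase that removes palmitate from proteins, had signals of 374 and 568, 1.52-fold higher (0.60). The hydrolases among the 36 chosen genes and those outside it thus gave medians on opposite sides of the median of all genes, and nothing about lysosomal hydrolases at large can be read from either list alone.

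**Figure D2:**
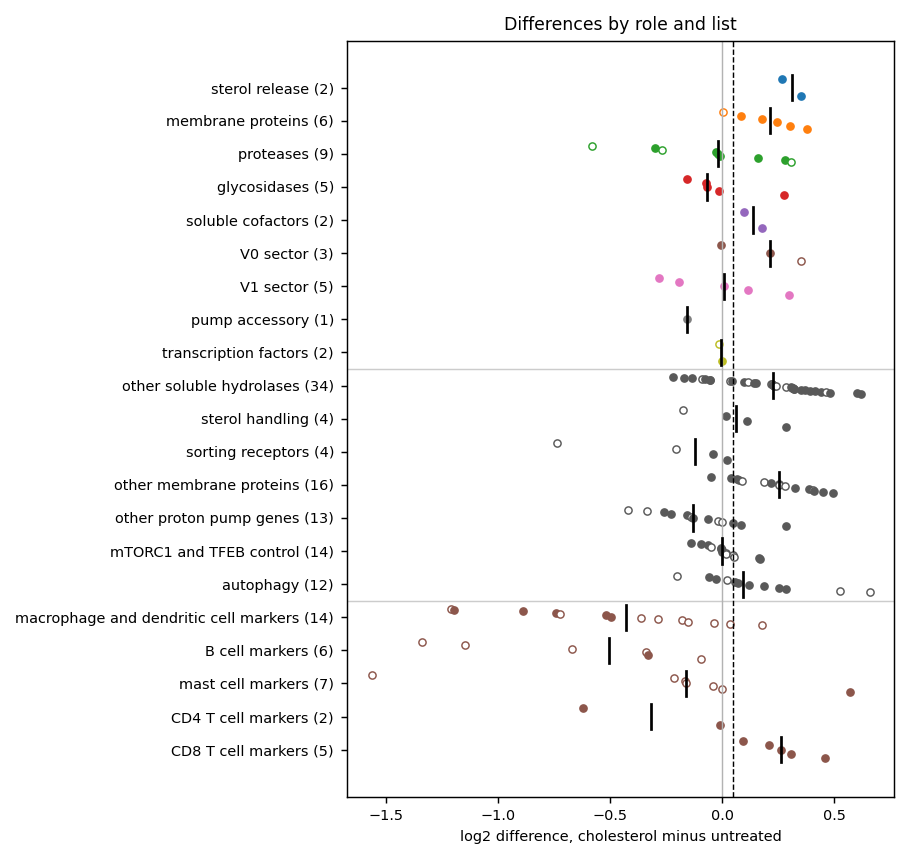
Log2 difference, cholesterol minus untreated, of each gene by role: members in colour, other lysosomal genes in grey and cell type markers in brown, filled where a gene was well detected on both arrays, with black bars at list medians and the dashed line at the median of all genes past the filter, 0.049. Sterol release genes and membrane proteins sit to the right of 0, pump genes on both sides, most markers of macrophages and dendritic cells to the left (12 of 14) and all 6 of B cells to the left.

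The vacuolar ATPase is built of a membrane sector, V0, through which protons pass, and a cytosolic sector, V1, which hydrolyses ATP. Its 9 members had 5 higher and 4 lower signals with cholesterol and a median of 0.0087. The median was -0.053 after quantile normalization and -0.058 after a lowess correction, where those of all genes past the filter were 0 and -0.001. In V0, Atp6v0d1, which couples the sectors, had signals of 419 and 486, 1.16-fold higher (0.21). Atp6v0c, the proteolipid of the proton-carrying ring, had 2051 and 2042 (-0.0060). Another probe set with this symbol had signals of 1106 and 1113 (0.010). Its name points to a different chromosome, so it may read a copy and is not taken as a second reading of the gene. RefSeq also lists pseudogenes of this gene, and whether the probes of either set bind near-identical copies was not examined. Atp6v0b, another ring proteolipid, had 93.3 and 119 and was dim.

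The V1 sector spread in both directions. Atp6v1d, a subunit of the central stalk, had signals of 291 and 357, 1.23-fold higher (0.30). Atp6v1h, the regulatory subunit H, had 312 and 256, 1.22-fold lower (-0.28). Atp6v1a, the catalytic subunit, had 424 and 370.2, 1.14-fold lower (-0.19), whereas its non-catalytic partner Atp6v1b2 had 362 and 364 (0.0087). The remaining V1 gene, Atp6v1c1 of the peripheral stalk, had 258 and 279 (0.11). Atp6ap1, an accessory subunit needed for assembly, had 511 and 458, 1.12-fold lower (-0.16). The differences of Atp6v1d and Atp6v1h, subunits of 1 sector, lay 0.58 apart, and both lay inside the central 95% of their signal band.

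Of the 13 other pump genes listed, 3 were higher, 9 lower and 1 equal, with a median of -0.13, and 5 of the 13 were dim. Among the 8 well detected ones 3 were higher and 5 lower, where the shares of all such genes were 61.9% and 37.2%. Their median was -0.097. Tcirg1, which encodes the a3 subunit of V0 known in osteoclasts and activated T cells, had signals of 308 and 376, 1.22-fold higher (0.29). Atp6ap2, the prorenin receptor and a pump accessory protein, had 474 and 396, 1.20-fold lower (-0.26), in the same direction as Atp6ap1.

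**Figure D3:**
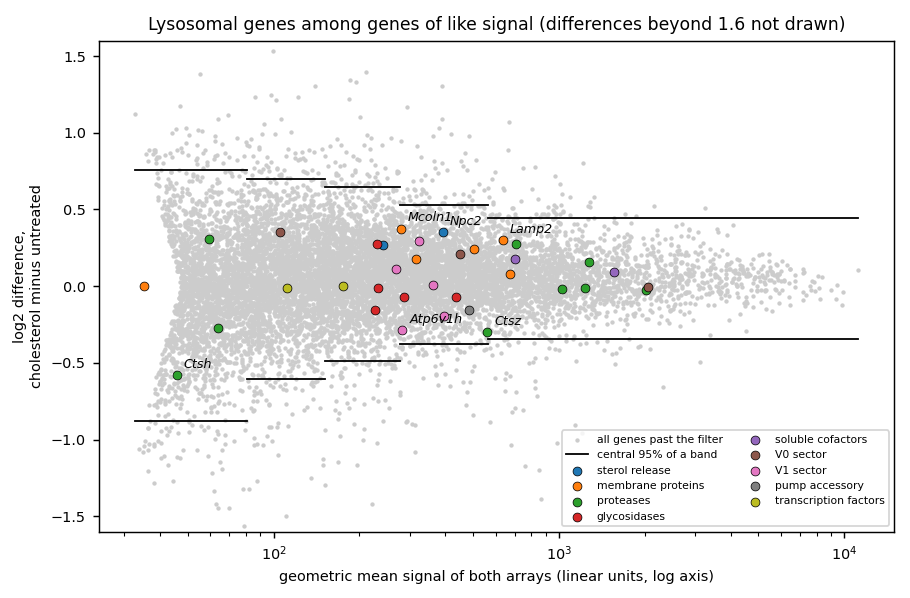
Log2 difference against the geometric mean signal of both arrays (linear units, log axis) for genes past the brightness filter (grey) and the members, coloured by role; black lines mark the central 95% of the differences in each of 5 signal bands. All members past the filter lie between the black lines, with Mcoln1 (0.38) highest and Ctsh (-0.58) lowest.

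The transcription factors of the compartment had nearly equal signals on the arrays. Tfe3 had the same signal of 174.6 on both arrays. Such exact ties were found for 119 of the 11327 genes past the filter (1.05%), and how they arose was not stated. Tfeb, which was dim, had signals of 112 and 111 (-0.014). Among 14 genes of mTORC1 and the control of TFEB, 6 were higher, 6 lower and 2 equal, the median was 0, and 0 passed the 25% step. Of all genes past the filter, 58.6% were higher, and 14.3% passed the step upward and 8.95% downward. The filter kept 11 of the 14. The 9 well detected ones had 2 higher and 5 lower, where the shares of all such genes were 61.9% and 37.2%. Rptor, which brings substrates to mTORC1, at 0.17, and Lamtor5, a subunit of its lysosomal anchor, at 0.16, had the largest differences of that list. These are transcript levels and say nothing of where TFEB or TFE3 protein was located.

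The other lysosomal membrane genes listed also leaned to the cholesterol array. They were read from the same pair of arrays and listed with earlier results known, so they are no independent support for the chosen membrane proteins. Of 16 listed, 15 were higher and 1 lower, with a median of 0.25, and 6 passed the 25% step upward. Ctns, the cystine exporter cystinosin, had signals of 135 and 190.3, 1.41-fold higher (0.49). Tpcn1, a cation channel of endosomes and lysosomes, had 314 and 428, 1.36-fold higher (0.45). Cd68, a heavily glycosylated LAMP relative used as a macrophage marker, had 145 and 181 (0.32), the opposite direction to most macrophage and dendritic cell markers above. Laptm5, a lysosomal protein of blood cells, had 7907 and 8272 (0.065). Of the 11 well detected ones 10 were higher and 5 passed the 25% step upward, where the shares of all such genes were 61.9% and 11.3%.

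Of the 4 sorting receptor genes 1 was higher and 3 were lower. The mannose 6-phosphate receptor genes M6pr and Igf2r differed by 0.022 and -0.041, while Lrp1 (-0.74) and Sort1 (-0.21) were dim. Of 12 autophagy genes 9 were higher, with a median of 0.093. Among the 8 well detected ones 6 were higher, where the share of all such genes was 61.9%, and 0 passed the 25% step. Sqstm1, the cargo receptor p62, had signals of 560.2 and 668, 1.19-fold higher (0.25), and Gabarapl2, an ATG8-family protein, had 185 and 225, 1.22-fold higher (0.28). Ulk1, the kinase that starts autophagy, had 48.6 and 76.7 (0.66) and was dim.

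Over all 97 other lysosomal genes the median difference was 0.085, with 64 higher and 30 lower, 17 past the 25% step upward and 3 downward, beside shares of 58.6% higher, 14.3% past the step upward and 8.95% downward for genes past the filter, a filter that 81 of the 97 passed. A broader set was taken from the GO component terms of the deposited table after the data had been seen: 385 genes annotated to the lysosome, other than the members, had a median of 0.039 with 57.4% higher. No filter was set here, and all 21877 genes had a median of 0 with 49.8% higher. The 201 well detected genes of this GO set had a median of 0.066, beside 0.059 for all 7112 such genes, and the 29 well detected members had 0.081. Both medians lay within 0.022 of that of all well detected genes.

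**Figure D4:**
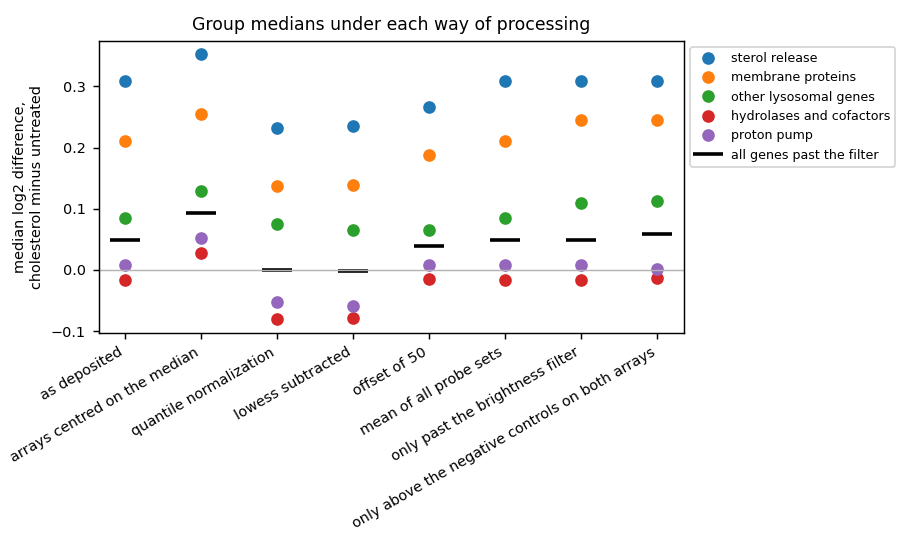
Median log2 difference of each group of lysosomal genes (points) under each way of processing. The black bar is the median of all genes past the brightness filter under the same processing, and of all well detected genes in the last setting. Outside the filter settings the points include genes below that filter. Sterol release genes (0.23 to 0.35) and membrane proteins (0.14 to 0.26) stay above the black bar in each, and hydrolases with cofactors and the proton pump stay below it.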

How the data were processed

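Per the labels' protocols, biotin was put on total RNA with a whole-transcript sense-target labelling, and 1 array was made per group. The authors deposited signal intensities on a linear scale for 28846 probe sets; their software, background correction, normalization and genome build were not given in the sources used here. Intensities in the series value table were the same, with a largest difference of 0. The authors' deposited ratio of cholesterol to untreated signal equalled the quotient of the signals for 22206 probe sets, within 1e-09, and was not used further. Of these probe sets, 31 without a single usable symbol were left out and 22175, naming 21877 genes, were kept, with the brightest probe set per gene by mean log2 signal. The difference of log2 signals, cholesterol minus untreated, was taken with pandas 2.3.3 and numpy 2.4.6 (Python 3.11.15). With 1 array in each group there was no test, and precision is limited by the number of arrays. A difference passed the 25% step when the brighter array's signal was at least 25% above that of the dimmer.

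Alternatives were centring each array on its median, quantile normalization, subtracting a lowess curve (statsmodels 0.14.6, fraction 0.3), an offset of 50 signal units, the mean of all probe sets, and filters on dim genes. The procedures were tested on simulated data. All members were named; of the other lysosomal genes the 2 largest absolute differences per list past the filter and Npc1, Tcirg1, Laptm5, Cd68 and Sqstm1, while Osbp, Osbpl1a, M6pr and Igf2r were added after their values were seen. A gene that this rule names is not reported here. The members and lists were chosen with earlier results of these data known. Motifs were searched as plain letters on both strands.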

Additional observations from a re-analysis of the deposited data

How the results depend on the processing

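No paired analysis was possible because each group has 1 array, and for the same reason no replicate could be left out. Moved medians are those shifted by over 0.14, the median disagreement of a pair of probe sets, divided by the square root of the number of genes, and moved counts those that differ by over 1.5 times; of 70 alternative values of medians and counts, 46 stayed, 21 moved and 3 changed sign. Centring each array on its median turned the hydrolases and cofactors from -0.016 to 0.028, and moved the median of all members to 0.052, that of the other lysosomal genes to 0.13, the members lower with cholesterol to 9 and those past the 25% step upward to 6. Quantile normalization turned the proton pump from 0.0087 to -0.053 and lowess to -0.058; they moved hydrolases and cofactors to -0.081 and -0.079, membrane proteins to 0.14 under each, the members past the step downward to 3 under each, and those past it upward to 1 and 0, and lowess moved the other lysosomal genes to 0.066. With the offset of 50 the members past the step upward and downward were 0 and 0 and the other lysosomal genes 0.065. The median of all genes past the filter shifted as well, from 0.049 as deposited to 0.093 with centring. It was 0 with quantile normalization, -0.001 with lowess and 0.039 with the offset. Past the brightness filter the median of all members was 0.045 and of the other lysosomal genes 0.11; among well detected genes these were 0.081 and 0.11, and 0 members were past the step downward. Of the 34 members with unequal signals, 6 changed sign under centring, 1 under quantile normalization, 1 under lowess, 1 under the mean of probe sets and 0 under the offset, none of them past the step in the deposited signals. Sterol release genes and membrane proteins kept positive medians under each of the 7 alternatives. Signals close to the negative controls limit what can be read for Ctsh, Ctsl, Lgmn, Cd63, Atp6v0b and Tfeb, whose sizes depend on the unknown background correction.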
